A study of Rattus with 9 samples.

Results

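The torsin family was followed across 9 liver libraries of Sprague-Dawley rats. Its members were the 4 genes of the deposited table with the names Tor1a, Tor1b, Tor2a and Tor3a, out of 20236 genes in all. Tor3a was selected on its measured values in these libraries, so its levels and differences are given as a description, with no test. The libraries fell into a pomegranate-high group, a model group and a normal control group with 3 libraries each, taken after 8 weeks of administration in a study of pomegranate and hyperlipidemia. The labels do not say how the model was produced, which pomegranate preparation or dose was given, the animals' age or sex, or what the normal controls received. Nor do they tie each library to an animal of its own, so the p-values measure the spread between these libraries.

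Torsins are AAA+ ATPases that reside in the lumen of the endoplasmic reticulum and of the nuclear envelope, which is continuous with it. They hydrolyse ATP only when a membrane-anchored cofactor, LAP1 (Tor1aip1) or LULL1 (Tor1aip2), binds them. In mouse liver, loss of torsinA or of LAP1 is known to impair secretion of very-low-density lipoprotein and to cause fat to build up in hepatocytes.

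Depth per library was 13678658 to 17966670 reads, as implied by the steps of the deposited FPKM values (fragments per length of gene and library total). Mitochondrially encoded genes took 4.17% to 14.5% of reads, with model library 1 at the top, followed by pomegranate-high libraries 2 and 1. All 10 hepatocyte markers were present in every library, with albumin (Alb) at up to 48568 FPKM. Their summed FPKM was 51809 to 68866 in pomegranate-high libraries, 67347 to 79829 in model libraries and 71675 to 79486 in normal control libraries. In bulk liver, fewer cells of a type and less RNA per cell cannot be told apart.

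The 4 torsins were transcribed at different levels, and Tor3a, chosen on its values, had a lower mean in model livers than in the other groups. Tor1a averaged 42.2 ± 7.81 FPKM in pomegranate-high livers, 39.9 ± 13.1 in model livers and 39.0 ± 5.07 in normal control livers (SD, n = 3 each). Tor3a averaged 8.40 ± 3.68 FPKM in pomegranate-high livers, 1.09 ± 0.425 in model livers and 7.23 ± 2.52 in normal control livers. All 4 torsins passed the filter on low values, which asked for 1 FPKM or more in 3 or more libraries and kept 11078 genes.

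**Figure D1:**
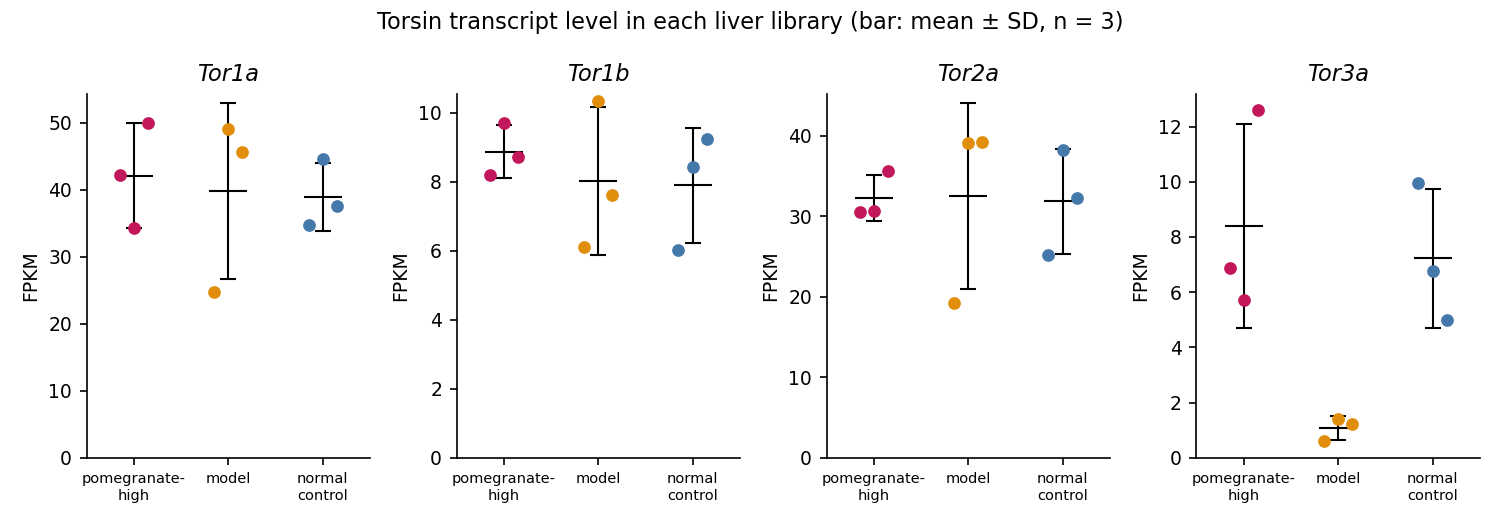
FPKM (vertical axes, each starting at 0) of each torsin in the 3 libraries of each group, with the mean and SD as black bars. The 3 model libraries sit between 0.606 and 1.42 FPKM for Tor3a, under every library of the other groups, while the groups overlap for Tor1a, Tor1b and Tor2a.

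Tor1a (ENSRNOG00000006894) encodes torsinA, the founding member, in which a mutation causes early-onset dystonia in humans. It lies on Rnor_6.0 chr3:9800322-9807328, minus strand. Its FPKM was 42.2, 34.3 and 49.9 in pomegranate-high libraries, 24.8, 49.2 and 45.6 in model libraries and 34.8, 44.6 and 37.6 in normal control libraries. The model group held both the lowest value, in library 1, and the second highest, and the groups overlapped. The difference of model from normal control was -0.02 ± 0.29 on the log2(FPKM + 1) scale (SE, adjusted p = 0.999 with limma), and that of pomegranate-high from model was 0.12 ± 0.29 (adjusted p = 0.918). The 95% interval of the difference of model from normal control ran from -0.66 to 0.62.

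Tor1b (ENSRNOG00000006435, chr3:9792899-9798923, plus strand) encodes torsinB, the closest relative of torsinA, and lies 1399 bp from Tor1a on the other strand. Its FPKM was 8.20, 9.70 and 8.70 in pomegranate-high libraries, 6.10, 10.3 and 7.60 in model libraries and 6.01, 8.42 and 9.24 in normal control libraries. The pomegranate-high libraries lay within the range of the model libraries, and the normal control libraries overlapped both. Differences were 0.01 ± 0.24 for model against normal control (adjusted p = 0.999) and 0.15 ± 0.24 for pomegranate-high against model (adjusted p = 0.874).

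Tor2a (ENSRNOG00000022514, chr3:11795629-11799693, plus strand) encodes a torsin that in human also yields a secreted peptide from an alternative transcript. Its FPKM was 30.5, 30.7 and 35.6 in pomegranate-high libraries, 19.2, 39.1 and 39.2 in model libraries and 25.2, 38.2 and 32.2 in normal control libraries. Model library 1 was again the lowest of all. Differences were -0.02 ± 0.30 for model against normal control (adjusted p = 0.999) and 0.06 ± 0.30 for pomegranate-high against model (adjusted p = 0.969). Its 3' end overlaps Ttc16 on the minus strand, which had 1 to 29 reads per library.

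Tor3a (ENSRNOG00000004307) encodes torsin 3A, whose human counterpart is known as an interferon-responsive gene. It lies on chr13:74252405-74276964, minus strand. Its FPKM was 6.86, 5.73 and 12.6 in pomegranate-high libraries, 0.606, 1.42 and 1.23 in model libraries and 9.95, 6.75 and 4.98 in normal control libraries. All model libraries lay below the other 6, and the pomegranate-high and normal control libraries overlapped over most of their range. These values rested on 203, 146 and 371 reads in pomegranate-high libraries, 15, 42 and 38 in model libraries and 291, 203 and 162 in normal control libraries.

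The reads set the counting error of each value, which does not cover the spread between libraries (a within-group SD of 0.44 on the log2 scale for Tor3a). The 15 reads of model library 1 have an exact Poisson 95% interval of 8.40 to 24.7 reads, or 0.339 to 1.00 FPKM. The highest model library had an upper limit of 1.92 FPKM, and the lowest library outside the model group, normal control library 3, had a lower limit of 4.25 FPKM. A count of 0 would have allowed 0.0923 to 0.121 FPKM, so Tor3a was above that limit in all 9 libraries.

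As a description, the model mean of Tor3a was 0.150 times the normal control mean, a log2(FPKM + 1) difference of -1.96 ± 0.32 (SE, 95% interval -2.67 to -1.24). The pomegranate-high mean was 7.74 times the model mean, a difference of 2.13 ± 0.32 (1.41 to 2.84). Both use the same model libraries and are not independent of each other. Pomegranate-high differed from normal control by 0.17 ± 0.32 (-0.55 to 0.88). Without pomegranate-high library 3, the highest of all, that last difference was -0.13. Among the 11078 tested genes, the difference of model from normal control was the 7th lowest and that of pomegranate-high from model the 7th highest.

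With limma, 0 of the 3 torsins not chosen on their values passed the threshold for model against normal control, where 0.00903% of tested genes were called. The same held for pomegranate-high against model (0.00903% of tested genes called) and for pomegranate-high against normal control (0.0181% called). For Tor1a, Tor1b and Tor2a, 0 of 3 had an unadjusted p under 0.05 in any of these comparisons, and 0 of 3 passed with voom on the recovered reads. In the whole table an unadjusted p under 0.05 was reached by 330, 963 and 1125 genes in these comparisons, and voom called 0, 0 and 1. For 1 of 4 torsins, Tor3a, all model libraries lay below all normal control libraries, as in 4.82% of tested genes, and all pomegranate-high libraries above all model libraries, as in 8.78%. Model libraries below all 6 others were found for 0.966% of tested genes. Pomegranate-high and normal control libraries did not overlap for 0 of 4 torsins, against 16.1% of tested genes. Since Tor3a was picked for this pattern, nothing is read from these shares.

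**Figure D2:**
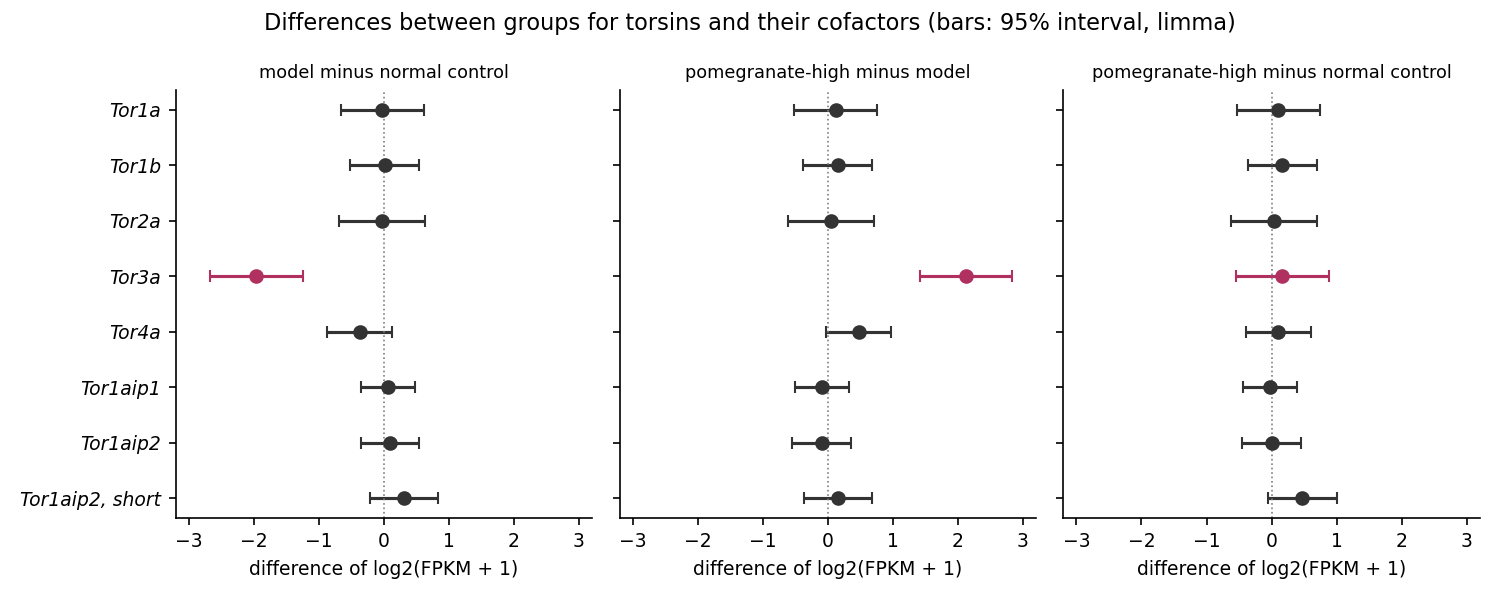
Differences of log2(FPKM + 1) (horizontal axes) for the torsins, the relative Tor4a and the cofactors in the 3 comparisons, with points at the limma estimates and bars for 95% intervals. Tor3a, shown in red, was chosen on its values, so its intervals are a description and no test. They lie at -2.67 to -1.24 for model minus normal control and 1.41 to 2.84 for pomegranate-high minus model. For pomegranate-high minus normal control the Tor3a interval is -0.55 to 0.88. The intervals of the other genes include 0 in each comparison.

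Because FPKM is per length, levels can be set beside each other. Tor1a and Tor2a were the most abundant torsin transcripts in every library, with median ranks of 1483 and 1860 among 17257 protein-coding genes in pomegranate-high livers, 1334 and 1562 in model livers and 1559 and 1780 in normal control livers. Tor1a lay above Tor2a in every library, at 1.12 to 1.40 times its FPKM in pomegranate-high libraries, 1.16 to 1.29 times in model libraries and 1.17 to 1.38 times in normal control libraries, although their ranges overlapped in each group. Tor3a had a median rank of 5106 in pomegranate-high livers, 9437 in model livers and 5247 in normal control livers. Tor3a and Tor1b did not differ beyond their spread in the pomegranate-high group, where their ratio was 0.591 to 1.45, or in the normal control group, where it was 0.540 to 1.66. In the model group the ratio was 0.0993 to 0.162.

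The make-up of the family followed from these levels. Tor3a made up 8.91% ± 2.52 of the summed torsin FPKM in pomegranate-high livers, 1.31% ± 0.112 in model livers and 8.64% ± 3.90 in normal control livers (SD, n = 3 each). Tor1a made up 45.8% ± 2.84, 48.9% ± 0.220 and 45.4% ± 0.549 in the same order of groups. The sum of the 4 torsins was 91.7 ± 13.6 FPKM in pomegranate-high livers, 81.4 ± 26.8 in model livers and 86.0 ± 11.2 in normal control livers, and these ranges overlapped. Model library 1, with the lowest sum of 50.7 FPKM, had a Tor3a share of 1.19%, close to the 1.42% and 1.31% of the other model libraries.

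**Figure D3:**
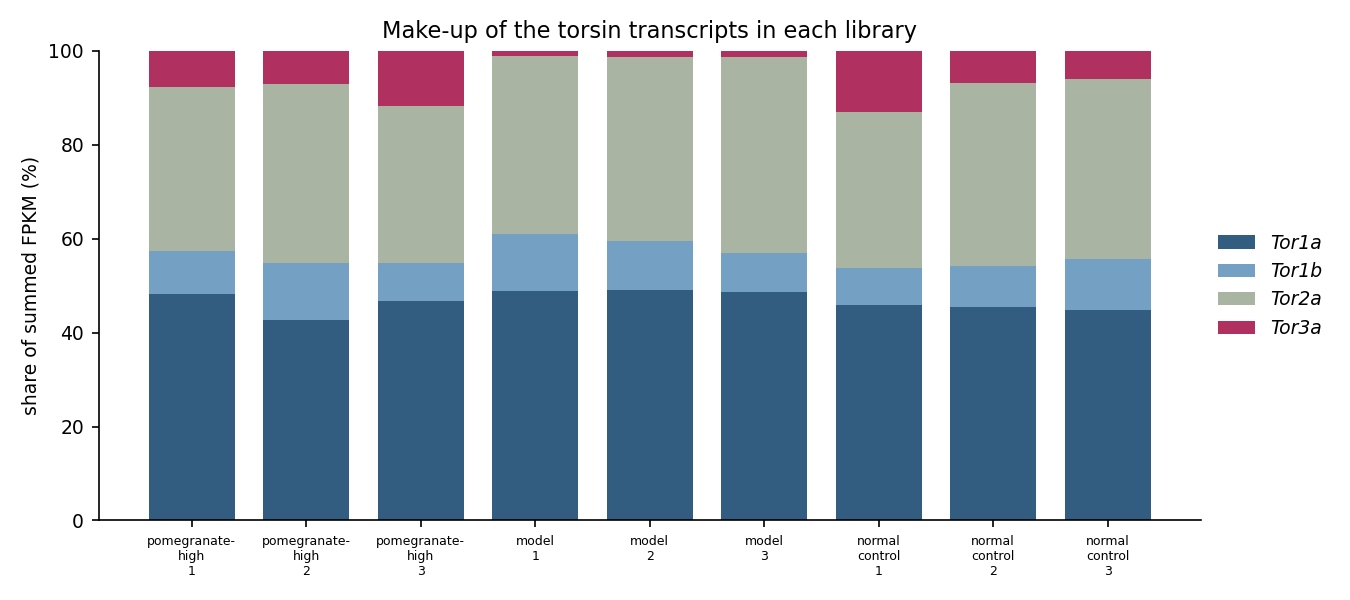
Share of the summed FPKM of the 4 torsins (vertical axis, %) taken by each torsin in each library. Tor3a, in red at the top, takes 7.13% to 11.8% in pomegranate-high libraries, 1.19% to 1.42% in model libraries and 5.93% to 13.1% in normal control libraries.

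Among the torsins not chosen on their values, 3 pairs were compared across the 9 libraries, with two-sided exact permutation tests. Tor1a and Tor2a varied together, with Pearson's r of 0.93 (p = 0.00104, adjusted over 3 pairs 0.00312) and Spearman's rho of 0.80 (p = 0.0138, adjusted 0.0415). Without model library 1 and pomegranate-high library 2, the farthest from the median of Tor1a, r was 0.84, and it was 0.81 without model library 1 alone. Tor1a and Tor1b had an r of 0.60 (permutation p = 0.0892) and a rho of 0.35 (p = 0.359), and r was 0.63 without the same libraries but 0.31 without model library 1 alone. Tor1b and Tor2a had an r of 0.72 (permutation p = 0.0283, adjusted 0.0424) and a rho of 0.47 (p = 0.213), but r was -0.13 without normal control library 1 and model library 1, so the relation rested on those libraries; without model library 1 alone it was 0.55. After subtraction of the group means, r for Tor1a and Tor2a was 0.93, with model library 1 still included. The low Tor1a and Tor2a values of model library 1 came with the highest mitochondrial share of any library, 14.5% of reads, and the part of that share in the relation was not tested. Tor3a was chosen on its values and its model libraries stood apart from those of the other groups, so no pooled r with a test is given for it.

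The cofactors and the distant relative were measured in the same libraries. Tor1aip1, which encodes the nuclear-envelope cofactor LAP1, averaged 6.13 ± 0.685 FPKM in pomegranate-high livers, 6.57 ± 0.548 in model livers and 6.24 ± 0.662 in normal control livers. The longer Tor1aip2 record, for the endoplasmic reticulum cofactor LULL1, averaged 14.6 ± 1.45, 15.7 ± 2.58 and 14.6 ± 1.45 FPKM in the same order. A shorter Tor1aip2 record (ENSRNOG00000048267) starts at the same base as the longer one, so reads may have been split between them, and it averaged 13.9 ± 3.80, 12.1 ± 0.794 and 9.62 ± 1.97 FPKM. The cofactors lie near each other on chromosome 13, the chromosome that also carries Tor3a.

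Tor4a, a more distant AAA+ relative, was the least abundant at 1.42, 1.51 and 1.31 FPKM in pomegranate-high libraries, 0.364, 1.12 and 0.798 in model libraries and 0.863, 1.26 and 1.68 in normal control libraries. Its pomegranate-high libraries all lay above its model libraries, whereas the normal control libraries overlapped both. The differences were -0.37 ± 0.23 for model against normal control (adjusted p = 0.999) and 0.48 ± 0.23 for pomegranate-high against model (adjusted p = 0.592). Of these 4 relative and cofactor records, 0 passed in any comparison with limma, and 0 had an unadjusted p under 0.05.

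The neighbours of Tor3a gave a check on the region. Tor3a lies within the span of Abl2, a tyrosine kinase gene on the plus strand with 3 to 33 reads per library and a mean of 0.247 FPKM in pomegranate-high livers, 0.226 in model livers and 0.404 in normal control livers, too low to be tested. Fam20b, a xylose kinase gene on the same strand 3209 bp away, averaged 6.97 ± 1.30 FPKM in pomegranate-high livers, 6.48 ± 1.19 in model livers and 6.70 ± 2.29 in normal control livers, and its groups overlapped. Soat1, which encodes an enzyme that esterifies cholesterol, lies 174622 bp away on the same strand and had 10 to 55 reads per library. Its FPKM was 1.35, 1.67 and 1.23 in pomegranate-high libraries, 0.375, 0.877 and 0.630 in model libraries and 1.36, 1.02 and 1.57 in normal control libraries. Its model libraries also lay below all others, with differences of -0.51 ± 0.20 for model against normal control (adjusted p = 0.999) and 0.58 ± 0.20 for pomegranate-high against model (adjusted p = 0.491), which did not pass.

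Genes with the pattern most like that of Tor3a were sought among 10112 tested genes, by Pearson's r of log2(FPKM + 1) over the 9 libraries. These libraries share the group means on which Tor3a was chosen, so r is a description. The 5 highest were Fndc4 (r = 0.92), Derl3 (0.90), Col14a1 (0.89), Clpx (0.89) and Slc25a20 (0.88), and 2 genes reached 0.9. After subtraction of the group means, r was 0.82 for Derl3, a gene of endoplasmic-reticulum-associated degradation, and 0.42 to 0.61 for the other 4. Derl3 averaged 1.10 ± 0.495 FPKM in pomegranate-high livers, 0.392 ± 0.210 in model livers and 0.978 ± 0.280 in normal control livers. These levels are close to or under the 1 FPKM of the filter, so its r rests on low values. Slc25a20, the mitochondrial carnitine-acylcarnitine carrier, averaged 95.9 ± 11.2, 70.9 ± 13.5 and 97.8 ± 5.90 FPKM in the same order.

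At the other end stood Mup4 (r = -0.90), Per2 (-0.86), Galr3 (-0.84), Spag1 (-0.84) and Rint1 (-0.83), and 0 genes had an r of -0.9 or less. Mup4, which codes for a urinary pheromone carrier and has near-identical copies that may split its reads, averaged 2.76 ± 2.83 FPKM in pomegranate-high livers, 19.9 ± 12.5 in model livers and 1.96 ± 0.224 in normal control livers. Per2, a repressor of the circadian clock, averaged 6.98 ± 1.00, 12.9 ± 2.61 and 9.32 ± 2.13 FPKM in the same order, and its r after subtraction of the group means was -0.72. Sampling times are not in the labels.

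**Figure D4:**
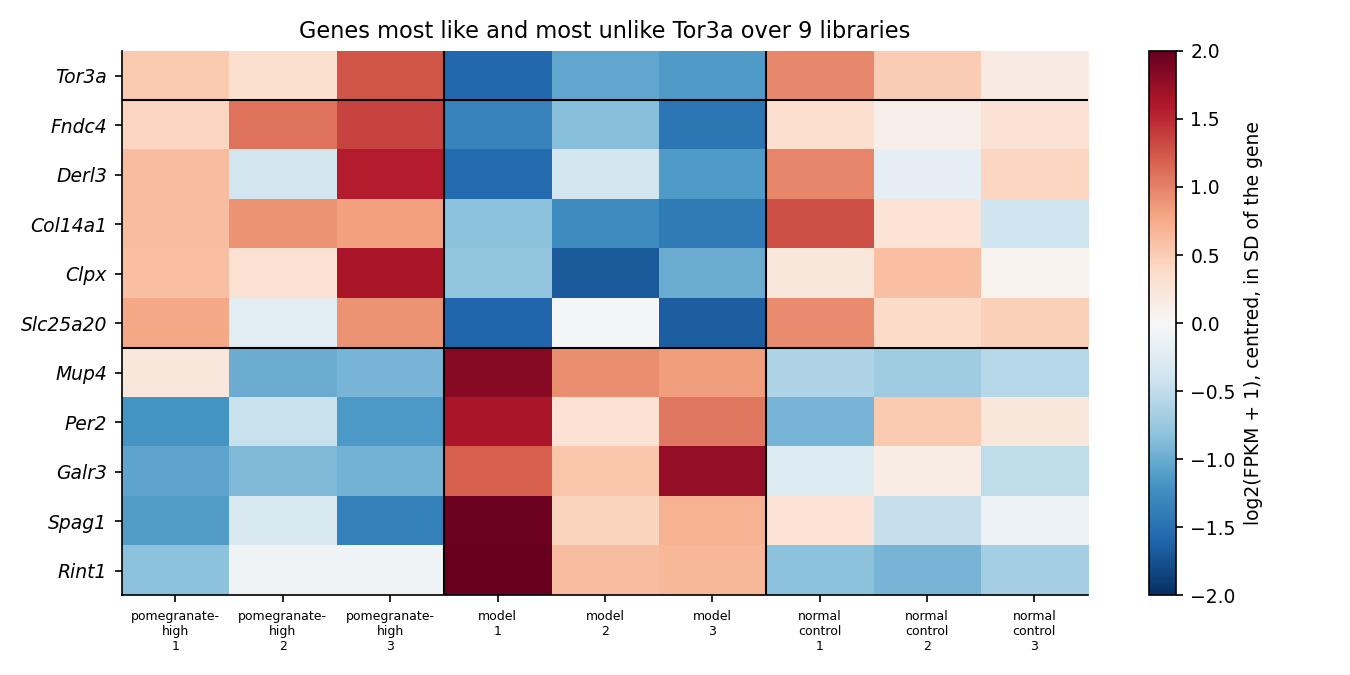
Levels of Tor3a (top) and of the 5 genes with the highest and the 5 with the lowest correlation with it, as log2(FPKM + 1) centred on each gene's mean and divided by its SD, per library (columns). Red marks libraries above the gene's mean and blue those below; on average the upper genes are lower and the lower genes higher in model libraries than in the others, as their choice required.

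Genes of the processes in which torsins work were read from lists. These lists, and that of interferon-stimulated genes, were chosen with earlier results of these data known, so their counts are a description. Of 24 tested nuclear envelope genes, 0 passed in any comparison, and their median difference was -0.07 for model against normal control, -0.04 for pomegranate-high against model and -0.05 for pomegranate-high against normal control. The medians of all tested genes were -0.03, 0.09 and 0.07 in the same order. Of these 11078 genes, 5082, 6755 and 6363 were higher and 5996, 4323 and 4715 lower. Sun2, a protein that links the nuclear envelope to the cytoskeleton, averaged 27.9 ± 23.8 FPKM in pomegranate-high livers, 28.5 ± 12.7 in model livers and 39.8 ± 4.10 in normal control livers. Of these nuclear envelope genes, 0 had an unadjusted p under 0.05 for model against normal control and 1 for pomegranate-high against model, Tmem43, at 3.01 ± 0.407, 1.70 ± 0.547 and 2.21 ± 0.395 FPKM (0.59 ± 0.21, adjusted p = 0.514).

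Of 20 genes of lipin activity and very-low-density lipoprotein secretion, 0 passed in any comparison with limma, with median differences of 0.08, -0.14 and -0.03 in the order above, and 0, 2 and 1 had an unadjusted p under 0.05. Lpin1 encodes a phosphatidate phosphatase of triglyceride synthesis, and lipin activity is known to depend on torsin in flies. It averaged 5.02 ± 4.59 FPKM in pomegranate-high livers, 10.6 ± 3.42 in model livers and 17.6 ± 0.198 in normal control livers. Its difference was -1.88 ± 0.44 for pomegranate-high against normal control (adjusted p = 0.285) and -1.15 ± 0.44 for pomegranate-high against model (adjusted p = 0.524), neither of which passed. Its unadjusted p was under 0.05 in both.

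Of 25 chaperone and quality-control genes of the endoplasmic reticulum, 0 passed in any comparison and 0, 2 and 2 had an unadjusted p under 0.05, with 19 higher and 6 lower in model than in normal control livers and a median of 0.14. Against normal control, pomegranate-high livers had 18 higher and 7 lower, with a median of 0.31. Edem1, which directs misfolded glycoproteins to degradation, averaged 19.4 ± 6.17 FPKM in pomegranate-high livers, 36.3 ± 10.4 in model livers and 42.5 ± 6.39 in normal control livers, and its difference from normal control was -1.13 ± 0.29 in pomegranate-high livers (adjusted p = 0.306). Of 21 other AAA+ ATPase genes, 0 passed in any comparison, with medians of -0.15, 0.09 and -0.04, and 1, 1 and 0 had an unadjusted p under 0.05. Clpx, the chaperone of a mitochondrial protease, averaged 88.4 ± 20.5 FPKM in pomegranate-high livers, 46.1 ± 6.62 in model livers and 73.1 ± 6.61 in normal control livers. Its differences were -0.66 ± 0.24 for model against normal control (adjusted p = 0.999) and 0.91 ± 0.24 for pomegranate-high against model (adjusted p = 0.478).

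Interferon-stimulated genes were set beside Tor3a because of its human counterpart. Of 33 tested, 0 passed in any comparison, while 0, 16 and 9 had an unadjusted p under 0.05. For model against normal control, 26 were lower and 7 higher, with a median of -0.28. For pomegranate-high against model, 31 were higher and 2 lower, with a median of 0.83. For pomegranate-high against normal control, 27 were higher and 6 lower, with a median of 0.58. Among all 11078 tested genes, 5996 were lower in the first of these comparisons, and 6755 and 6363 were higher in the others. An unadjusted p under 0.05 was reached by 330, 963 and 1125 of all tested genes. The summed FPKM of the list overlapped between model libraries (345 to 1195) and normal control libraries (815 to 1697). In pomegranate-high libraries that sum was 1121 to 1597. A link of Tor3a to these genes was not tested.

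Ifit2 and Cxcl10 are described as single genes of this list. Both had a higher mean in model than in normal control livers, whereas 26 of the 33 tested genes of the list were lower. Ifit2, which binds viral RNA, had 9.30, 17.8 and 10.4 FPKM in pomegranate-high libraries, 6.99, 4.75 and 4.42 in model libraries and 4.90, 2.89 and 2.96 in normal control libraries. Its pomegranate-high libraries lay above all others, and its model and normal control libraries overlapped. Its differences were 1.05 ± 0.29 for pomegranate-high against model (adjusted p = 0.478) and 1.54 ± 0.29 for pomegranate-high against normal control (adjusted p = 0.263). Cxcl10, a chemokine, had 24.5, 154 and 22.7 FPKM in pomegranate-high libraries, 2.71, 7.33 and 13.7 in model libraries and 1.91, 1.49 and 5.84 in normal control libraries, and pomegranate-high library 2 stood far above the rest. That library had the lowest Tor3a value of its group.

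Markers of other liver cells stood at different levels in the same libraries. Their lists were also chosen with earlier results of these data known. Among all 11078 tested genes, 5996 were lower in model than in normal control livers and 6755 higher in pomegranate-high than in model livers. Of 12 Kupffer cell and macrophage markers, 12 were lower in model than in normal control livers (median -0.83) and 12 higher in pomegranate-high than in model livers (median 0.95), while 0 passed and 4 and 5 had an unadjusted p under 0.05. Their summed FPKM was 507 to 1249 in pomegranate-high libraries, 151 to 531 in model libraries and 465 to 857 in normal control libraries. Of 11 sinusoidal endothelial markers, 11 were lower in model than in normal control livers (median -0.80), of which 0 passed and 9 had an unadjusted p under 0.05. Against model, pomegranate-high livers had 10 higher and 1 lower (median 0.36). Against normal control they had 1 higher and 10 lower (median -0.46), where 4715 of all tested genes were lower. In these comparisons 0 passed, and 1 and 3 had an unadjusted p under 0.05. The endothelial sums were 94.3 to 148 FPKM in pomegranate-high libraries, 72.5 to 114 in model libraries and 146 to 165 in normal control libraries. None of these markers was at 0 in any library, and their part in the Tor3a difference was not tested.

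Of the red blood cell markers, 6 of 6 tested were lower in model than in normal control livers (median -0.87), against 5996 of all 11078 tested genes. In pomegranate-high livers 6 of 6 were higher than in model livers (median 1.52), against 6755 of all tested genes. In these comparisons 0 and 1 of the markers passed. Ahsp, which stabilises alpha globin, was listed at 0 in 1 library. Their summed FPKM was 1494 to 2924 in pomegranate-high libraries, 475 to 1257 in model libraries and 1261 to 1898 in normal control libraries. Hba-a3, an alpha globin gene of a multi-copy family, rose to 30.9 ± 10.2 FPKM in pomegranate-high livers, against 5.60 ± 0.574 in model livers, a difference of 2.23 ± 0.25 (adjusted p = 0.0386). It passed in 6 of the 21 alternatives, with adjusted p up to 0.453. Stab2, Kdr and Marco, which are receptors of endothelial cells and macrophages, had differences of -0.93 ± 0.20, -0.99 ± 0.24 and -1.71 ± 0.56 for model against normal control, which did not pass (adjusted p = 0.999 each). The part of blood and non-parenchymal cells in the torsin values was not tested.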

How the data were processed

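Rat liver poly(A) RNA was sequenced in 9 libraries, grouped by the labels' group field, 3 per group. Expression came as FPKM in 1 table deposited by the authors, in which fragments are divided by the length of each gene and the size of each library. It held 20236 genes, and 0 value columns were left unmapped. The submitters' processing notes list HTSeq 0.6.0, DESeq, DESeq2, HISAT2, TopHat2 and Bowtie2 2.2.3, without saying which step used which, and the build Rnor_6.0. The sources used here do not state a strand setting for counting, so a gene inside another on the other strand may take up its reads. FPKM divides by a library total that a few abundant genes can fill, so a change in their share moves every other value.

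Reads per gene were recovered from the FPKM steps, with each gene's length taken as the smallest whole number that made its reads whole. Of 146433 nonzero values, 100% gave a whole number of reads within 0.001 reads. Since the lengths were chosen for this, that share is no separate check. Recovered reads came to between 99.987% and 99.995% of the implied library totals of 13678658 to 17966670. They served for exact Poisson 95% intervals, which cover counting error only, and for limma's voom as an alternative; 3 reads were taken as the limit that a count of 0 allows.

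Group differences were fitted on log2(FPKM + 1) with limma 3.58.1 in R 4.3.3, using all 9 libraries, 3 group levels and an intensity trend. The 11078 genes at 1 FPKM or more in 3 or more libraries were tested, two-sided, with Benjamini-Hochberg adjustment at 0.05. The procedure was tested on simulated data whose shifts were larger than any difference given here, so recovery of smaller differences was not tested. The members and lists were chosen with earlier results of these data known. Of 213 listed symbols, 207 were found.

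Named genes were the 4 torsins, their cofactors, up to 4 tested genes per other list with the smallest p in model against normal control or pomegranate-high against normal control, the 5 genes most and the 5 least correlated with Tor3a, and the nearest or overlapping genes. Apart from the relative Tor4a, a list gene's log2 difference is printed only where its unadjusted p was under 0.05, a choice made after the values were seen. Alternatives changed the pseudocount (0.1), the filter, the scaling, the groups fitted, the trend, library weights, the kind of values, a mitochondrial covariate and the libraries left out. RefSeq names served for checking symbols only.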

Additional observations from a re-analysis of the deposited data

How the results depend on the processing

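Over 21 alternatives, the Tor3a difference stayed negative for model against normal control (-2.71 to -1.69) and positive for pomegranate-high against model (1.82 to 2.92). For pomegranate-high against normal control it changed sign (-0.13 to 0.77). Tor3a was chosen on its values and its model libraries lay below all others, so the unchanged signs are a description and no separate support. A pseudocount of 0.1 gave -2.65 and 2.83 and voom on recovered reads -2.71 and 2.92. The third value was 0.77 without the 3 libraries of highest mitochondrial share. Those were model library 1 and pomegranate-high libraries 1 and 2. Only pomegranate-high library 3, with the highest Tor3a value of all, then stood for its group. Leaving out each library in turn gave Tor3a -2.17 to -1.73, 1.82 to 2.33 and -0.13 to 0.40. Of Tor1a, Tor1b and Tor2a, 0 of 3 passed the threshold in any comparison under any of these alternatives. The median of all genes moved by -0.12 with median-of-ratios scaling and -0.11 with quantile normalization for pomegranate-high against model, and by -0.11 rescaled to TPM for pomegranate-high against normal control. Relative to that median, Tor3a lay 2.05 and 2.02 higher in pomegranate-high than in model livers under the first pair of scalings, against 2.03 without them, and 0.10 higher than in normal control livers both with and without rescaling to TPM. The causes of these changes were not tested.

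Genes called for model against normal control (1) numbered 0 with a pseudocount of 0.1, no filter, a mean FPKM of at least 5, quantile normalization, voom or the mitochondrial covariate, 10 with weights, 2 without the 3 libraries, and 0 to 1 with a library left out. For pomegranate-high against model (1) they numbered 0 with no filter, median-of-ratios scaling, quantile normalization, the compared groups alone, voom or the covariate. They numbered 0 to 77 with a library left out. For pomegranate-high against normal control (2) they numbered 0 with a pseudocount of 0.1, either other filter, rescaling to TPM or the compared groups alone. They numbered 1 with median-of-ratios scaling, quantile normalization, no trend, voom or the covariate, 6 with weights, and 0 to 328 with a library left out. Without the 3 libraries, pomegranate-high kept only its library 3, so no count is given for its comparisons. The counts of 77 and 328 came without pomegranate-high replicate 3.

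The small differences of the other torsins and cofactors changed sign as follows, with 0 of them past the threshold. For model against normal control, Tor1a and Tor2a were 0.013 and 0.0098 with median-of-ratios scaling, 0.026 and 0.0099 with quantile normalization, 0.15 and 0.17 with weights, 0.33 each with the covariate and 0.28 and 0.31 without the 3 libraries. Tor1b was -0.013 rescaled to TPM, and the longer Tor1aip2 record -0.0063 with the covariate and -0.027 without the 3 libraries. With a library left out, Tor1a spanned -0.20 to 0.28, Tor1b -0.17 to 0.17, Tor2a -0.19 to 0.31, Tor1aip1 -0.0035 to 0.13 and the longer Tor1aip2 record -0.027 to 0.17. For pomegranate-high against model, Tor1a was -0.015, -0.0077 and -0.19 with median-of-ratios scaling, quantile normalization and weights. Tor2a was -0.049 rescaled to TPM, -0.080 with median-of-ratios scaling, -0.058 with quantile normalization, -0.24 with weights, -0.025 with the covariate and -0.13 without the 3 libraries. Without those libraries, which left pomegranate-high library 3 alone in its group, Tor1b was -0.025, Tor1aip1 0.040 and the longer Tor1aip2 record 0.13. With weights that record was 0.019. With a library left out, Tor1a spanned -0.18 to 0.30, Tor1b -0.0036 to 0.33, Tor2a -0.27 to 0.22, and the Tor1aip2 records -0.16 to 0.030 (longer) and -0.038 to 0.29 (shorter). For pomegranate-high against normal control, Tor1a was -0.030, -0.0024 and -0.035 rescaled to TPM, with median-of-ratios scaling and with weights. Tor2a was -0.099, -0.070, -0.048 and -0.072 rescaled to TPM, with median-of-ratios scaling, quantile normalization and weights. The longer Tor1aip2 record was -0.13, -0.097, -0.083 and -0.077 rescaled to TPM, with median-of-ratios scaling, quantile normalization and the covariate. Tor1aip1 was 0.0077 with weights and 0.046 without the 3 libraries. With a library left out, Tor1a spanned -0.027 to 0.24, Tor2a -0.12 to 0.17, Tor1aip1 -0.092 to 0.059, Tor4a -0.030 to 0.23 and the longer Tor1aip2 record -0.053 to 0.081. No paired analysis was possible because the replicate numbers only follow the order of the samples. Depth limits Tor3a most in model libraries, at 15 to 42 reads.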

Other observations

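Stellate cell, lymphocyte and neutrophil markers were set beside those of the other liver cells. Among all 11078 tested genes, 6755 were higher in pomegranate-high than in model livers and 6363 higher than in normal control livers. Of 10 lymphocyte markers 4 were tested, and 4 of 4 were higher in pomegranate-high than in model livers (median 0.89). Of 7 neutrophil markers 2 were tested, and 2 of 2 were higher (median 1.29). Among these, 0 were past the threshold. S100a9, a tested neutrophil marker, had 0.926, 15.3 and 1.86 FPKM in pomegranate-high libraries and 0.138, 2.89 and 0.999 in model libraries. Its ranges overlapped, with pomegranate-high library 2 far above the rest. Of 11 stellate cell markers, 11 were higher in pomegranate-high than in model livers (median 0.55) and 9 of 11 higher than in normal control livers (median 0.67), and 0 passed the threshold in either comparison with limma, while 5 and 4 had an unadjusted p under 0.05. Col3a1, a fibrillar collagen gene, averaged 46.9 ± 17.2 FPKM in pomegranate-high livers, 16.1 ± 2.92 in model livers and 18.7 ± 5.13 in normal control livers, a difference of 1.43 ± 0.32 from model (adjusted p = 0.453). Cd8a, a marker of cytotoxic T cells, averaged 7.04 ± 3.60 FPKM in pomegranate-high livers, 2.03 ± 0.784 in model livers and 1.76 ± 0.732 in normal control livers, a difference of 1.31 ± 0.38 from model (adjusted p = 0.478). The neutrophil granule genes Mpo and Elane were listed at 0 in 8 and 7 of the 9 libraries. Of 6 cholangiocyte markers 2 were tested, and 2 of 2 were higher in pomegranate-high than in model livers (median 1.02). Among these, 0 were past the threshold and 0 at an unadjusted p under 0.05. Spp1 had 4.35, 12.6 and 0.243 FPKM in pomegranate-high libraries and 0.674, 1.01 and 0.231 in model libraries, which overlapped. In normal control libraries it had 1.87, 0.317 and 0.623 FPKM. Spp1 passed the filter on low values only through its pomegranate-high libraries, so nothing is read from the 2 of 2.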
